A study of Mus musculus with 32 samples.

Results

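The Ifit family of the mouse comprises *Ifit1*, *Ifit2*, *Ifit3*, *Ifit3b*, *Ifit1bl1* and *Ifit1bl2*, and all 6 genes were followed through ribosome footprints and total RNA of neural stem cells (NSCs) treated with interferon-β (IFN-β). They were chosen by gene symbol and found by their Ensembl identifiers, 6 of 23035 genes in the footprint tables and 6 of 39017 in the total RNA tables. NSCs were grown ex vivo from the ventricular-subventricular zone (vSVZ) of wild-type (labelled wt) C57BL/6 mice aged 8 to 12 weeks. They were exposed for 2 h or 14 h to IFN-β or to its vehicle. There were 4 groups of 4 cultures, described by the study as coming from different mice. Those of 2 h carry the numbers 2, 3, 5 and 6, and those of 14 h the numbers 1 to 4. Each culture gave 1 footprint library, made from the mRNA fragments that ribosomes protect from nuclease, and 1 total RNA library, and every group received cycloheximide shortly before lysis. As a model they are cultured NSCs of 1 mouse strain, without the surrounding tissue.

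IFIT proteins are built from tetratricopeptide repeats and belong to the most strongly interferon-induced proteins of mammals. IFIT1 binds the 5′ end of RNAs whose cap lacks 2′-O-methylation, a mark that separates many viral RNAs from host mRNA, and keeps them from being translated. Human IFIT2 and IFIT3 form complexes with IFIT1 or with each other, and IFIT proteins have been found to bind subunits of the initiation factor eIF3. Their genes are classical targets of ISGF3, a complex that holds STAT2 and IRF9 and binds the interferon-stimulated response element (ISRE) in their promoters.

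All 6 genes lie within 99.3 kb of chromosome 19 (mouse build GRCm38, annotation GENCODE M21). *Ifit2* (ENSMUSG00000045932) runs from 34550694 to 34576419, *Ifit3* (ENSMUSG00000074896) from 34583531 to 34588731, *Ifit3b* (ENSMUSG00000062488) from 34607970 to 34613401 and *Ifit1* (ENSMUSG00000034459) from 34640871 to 34650009, all on the plus strand. *Ifit1bl1* (ENSMUSG00000079339) runs from 34592891 to 34601956 and *Ifit1bl2* (ENSMUSG00000067297) from 34617049 to 34640743, both on the minus strand. The starts of *Ifit1* and *Ifit1bl2* face away from each other across 128 bases.

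The promoters are shown because the ISRE is the element through which ISGF3 acts, and because 2 pairs of members share promoter sequence. RefSeq gives 9 start windows for the 6 genes, each from 250 bases before to 50 bases after a transcript start (build GRCm38.p6). They were searched on both strands for 2 GAAA elements with 2 bases between them, GAAANNGAAA or TTTCNNTTTC, and 6 of the 9 windows, belonging to 5 of the 6 members, held a match. Over all 32851 windows of the genome the share with a match was 3.44%, and the share with 2 or more was 0.225%. *Ifit1*, *Ifit1bl2*, *Ifit3* and *Ifit3b* each had a window with 2 matches, and *Ifit1bl1* had 1 match in each of its 2 windows. These letters were not in the 2 windows of *Ifit2*. The stretches upstream of the start read as follows, each 5′ to 3′ on the strand of its gene, with the matches in capitals.

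*Ifit1*, chr19:34640773-34640825, plus strand: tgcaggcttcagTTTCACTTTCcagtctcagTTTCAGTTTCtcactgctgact

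*Ifit1bl2*, the same bases read on the minus strand: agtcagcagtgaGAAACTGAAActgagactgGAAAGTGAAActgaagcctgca

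*Ifit3*, chr19:34583361-34583428, plus strand: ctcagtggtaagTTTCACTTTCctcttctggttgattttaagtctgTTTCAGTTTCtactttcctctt

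*Ifit3b*, chr19:34607757-34607824, plus strand: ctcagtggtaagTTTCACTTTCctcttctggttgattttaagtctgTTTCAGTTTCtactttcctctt

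*Ifit1bl1*, chr19:34602051-34602084, minus strand: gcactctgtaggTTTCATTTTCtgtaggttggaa

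*Ifit1* and *Ifit1bl2* thus share 1 stretch with 2 matches between their starts, at 104 and 85 bases before the *Ifit1* start and at 70 and 51 bases before that of *Ifit1bl2*. The 68 bases of *Ifit3* and *Ifit3b* are the same in both genes. A match is a description of the letters and was not tested as a binding site.

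**Figure D1:**
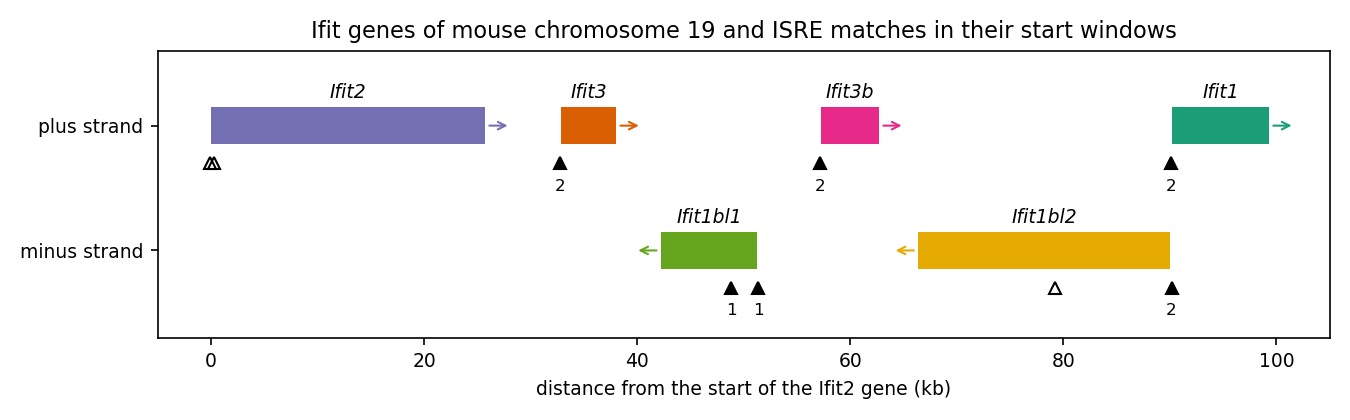
Map of the Ifit genes along chromosome 19, with the distance from the start of the *Ifit2* gene in kb on the x axis and the strand on the y axis; bars are genes, arrows give the direction of transcription, and triangles mark the RefSeq start windows, filled with the number of ISRE matches or open where there was none. The 6 genes fill 99.3 kb, and *Ifit1* and *Ifit1bl2* start back to back.

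Near-identical copies limit what the counts of single members can show. The coding sequences (CDS) of *Ifit3* and *Ifit3b* are both 1209 bases long and were 99.1% identical, with 11 differing bases and no gap. Each CDS was read in windows of 30 bases, about the length of a footprint. Of the 1180 windows of *Ifit3*, 931 (78.9%) also stand in *Ifit3b*, and 98.4% do so with up to 2 mismatches. The longest stretch without a difference spans 329 bases, from CDS base 829 to 1157. The 90 bases with the most differences, CDS bases 199 to 288 counted from the A of the start codon, show how the copies are told apart, with the 4 differing bases in capitals.

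*Ifit3*: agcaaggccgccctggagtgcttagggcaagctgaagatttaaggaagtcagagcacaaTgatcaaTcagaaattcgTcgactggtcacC

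*Ifit3b*: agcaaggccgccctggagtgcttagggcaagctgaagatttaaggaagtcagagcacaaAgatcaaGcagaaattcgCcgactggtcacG

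*Ifit1*, *Ifit1bl1* and *Ifit1bl2* form the other group of related sequences. *Ifit1bl1* and *Ifit1bl2* were 87.4% identical, and each was close to 73% identical to *Ifit1* (73.1% and 72.9%). Of the 1360 windows of *Ifit1*, 256 (18.8%) stand in *Ifit1bl1* or *Ifit1bl2*, and 26.9% with up to 2 mismatches. *Ifit2* shared no window with any member, even with up to 2 mismatches, so it was the member whose counts no other member can share. No window of the 6 CDS stood in an annotated transcript of another gene. A read that matches 2 copies can be placed in either by the aligner, so values of *Ifit3* against *Ifit3b*, and of *Ifit1bl1* and *Ifit1bl2* beside the much higher *Ifit1*, are uncertain to this extent.

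**Figure D2:**
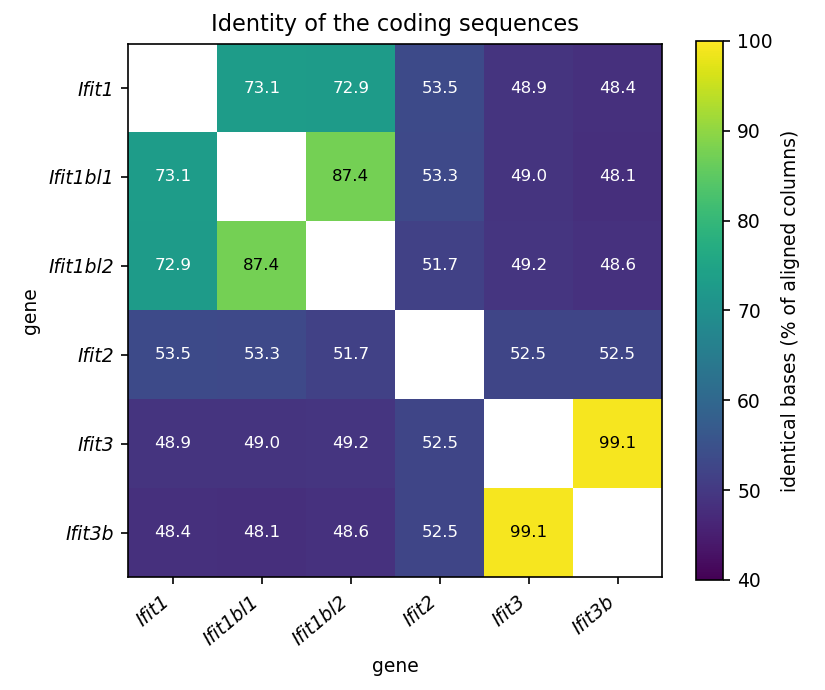
Identity of the coding sequences of each pair of Ifit genes, as the percentage of aligned columns with the same base, genes on both axes. *Ifit3* and *Ifit3b* stand at 99.1%, the 3 genes of the *Ifit1* group between 72.9% and 87.4%, and every other pair below 54%.

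Total counts ranged from 2956297 to 10505108 over the 16 footprint libraries and from 1370008 to 7877753 over the 16 total RNA libraries. In total RNA, vehicle culture 3 of 14 h stood apart with 42.0% of counts in protein-coding genes against 66.1% to 70.2% in the other vehicle cultures, and vehicle culture 5 of 2 h with 72.2% against 63.2% to 64.3%. The 10 NSC markers, among them *Sox2*, *Nes* and *Vim*, together had between 11462 and 18877 CPM in every footprint library, that is counts scaled to a common library size with TMM. The 7 microglia markers together had 11.9 to 45.4 CPM, the 5 endothelial markers 3.91 to 24.7 CPM. Of the microglia markers *Cx3cr1* and *Aif1* were at 0 in every group and *Ptprc*, *Csf1r* and *Tmem119* had at most 10 counts in a group, while at 14 h *P2ry12* was higher with IFN-β (586 counts against 251, log2 fold change 1.62) and *Itgam* lower (502 against 1098, -0.75). Of the markers of other cells, those of oligodendrocytes summed to 218 to 294 CPM with IFN-β for 14 h against 95.7 to 126 with vehicle, with *Mag* at 0 in the treated libraries, and those of ependymal cells to 76.1 to 97.1 against 24.1 to 37.7, with *Tmem212* at 0 in every library. Neuroblast markers summed to 356 to 483 CPM with IFN-β for 2 h against 199 to 252, and to 179 to 207 for 14 h against 225 to 248. *Sox11* held most of these counts and was called at both times (1.00 at 2 h and -0.45 at 14 h), whereas *Dcx*, *Neurod1* and *Dlx2* had fewer counts with IFN-β than with vehicle at 2 h (49 against 78, 36 against 66 and 25 against 49). The part of these cell markers in the results was not tested. Levels below are in the same CPM. In such bulk libraries, more cells of a kind and more RNA per cell cannot be told apart.

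*Ifit1*, the cap-binding member, was among the most induced. With vehicle at 2 h it had 7.33, 9.09, 5.03 and 6.47 footprint CPM in cultures 2, 3, 5 and 6. With IFN-β for 2 h it had 711, 1828, 950 and 587 CPM in the same order. With vehicle at 14 h it had counts of 0, 2, 0 and 1 in cultures 1 to 4, and with IFN-β for 14 h counts of 1606, 4286, 4809 and 6458 (539 to 712 CPM). Treated and vehicle libraries did not overlap at either time. The log2 fold change at 2 h was 7.19 (SE 0.44, adjusted p = 9.6e-06), which is 146-fold. At 14 h the 3 vehicle counts gave a ratio of 7516 with a 95% counting interval of 2571 to 36450, and the gene was called (adjusted p = 4.4e-14).

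*Ifit1bl1* and *Ifit1bl2*, mouse paralogs of *Ifit1* whose functions are little studied, rose as well but stayed low. *Ifit1bl1* had 117, 95, 109 and 77 footprint counts with IFN-β for 2 h against 1, 1, 0 and 1 with vehicle. At 14 h it had 27, 95, 83 and 128 counts against 1, 0, 0 and 0. The ratios were 160 (95% counting interval 54.4 to 779) at 2 h and 438 (78.0 to 17340) at 14 h. *Ifit1bl2* had 53, 88, 55 and 51 footprint counts with IFN-β for 2 h against 1, 0, 1 and 2, a log2 fold change of 6.12 (SE 0.58, adjusted p = 0.000156). At 14 h it had 37, 79, 71 and 88 counts against 0 in all 4 vehicle libraries, at least 121-fold higher when 3 counts over the group are taken as the floor. Both paralogs were called at both times. Beside them, *Ifit1bl1* held 1.06% to 2.22% and *Ifit1bl2* 0.808% to 2.30% of the footprint count of *Ifit1* in the 8 treated libraries. The part of reads shared with *Ifit1* in these counts was not tested.

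*Ifit2*, the member with a CDS of its own, was the one with a clear level in every vehicle library. With vehicle it had 18.5, 20.8, 18.7 and 19.3 CPM at 2 h and 14.0, 12.3, 13.6 and 13.2 CPM at 14 h. With IFN-β it had 348, 554, 395 and 247 CPM at 2 h and 699, 826, 933 and 872 CPM at 14 h. The log2 fold change was 4.32 (SE 0.24, adjusted p = 5.1e-06) at 2 h and 5.97 (SE 0.11, adjusted p = 5.6e-14) at 14 h, or 20.0-fold and 62.8-fold. *Ifit2* thus had the smallest measured factor of the 6 genes at both times and the highest vehicle level per kilobase.

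*Ifit3* and *Ifit3b*, whose product in humans stabilises IFIT1 on RNA, moved side by side. *Ifit3* had 4.68, 6.43, 4.90 and 6.47 CPM with vehicle at 2 h and 588, 1067, 735 and 496 CPM with IFN-β. At 14 h it had counts of 2, 1, 3 and 2 with vehicle and 4023, 10324, 10801 and 15024 with IFN-β (1350 to 1612 CPM). At 2 h *Ifit3b* had 4.36 to 4.75 CPM in vehicle libraries and 414 to 896 CPM in treated ones, and it had counts of 2, 1, 8 and 6 against 3321, 8097, 8619 and 12107 at 14 h. The log2 fold changes at 2 h were 7.01 (SE 0.30) for *Ifit3* and 7.04 (SE 0.29) for *Ifit3b*. At 14 h they were 12.55 and 11.20, from vehicle sums of 8 and 17 counts. Their SEs (0.15 and 0.17) lie below the counting error of so few counts.

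All 6 members were called higher in footprints at 2 h, where 5.25% of the 12104 genes tested were called higher. All 6 were called higher at 14 h too, where 26.2% of 12113 genes were called higher. *Ifit1bl1* and *Ifit1bl2* at 2 h, and every member but *Ifit2* at 14 h, passed the count filter only through their treated libraries. With the culture number as a block, 3538 genes in place of 878 were called in either direction at 2 h, and the 6 members stayed called. The median log2 fold change over all genes tested was -0.02 at 2 h and 0.003 at 14 h. Together the family took 0.171% to 0.433% of all footprints with IFN-β for 2 h and 0.375% to 0.454% for 14 h, against 0.00334% to 0.00415% and 0.00129% to 0.00155% with vehicle.

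**Figure D3:**
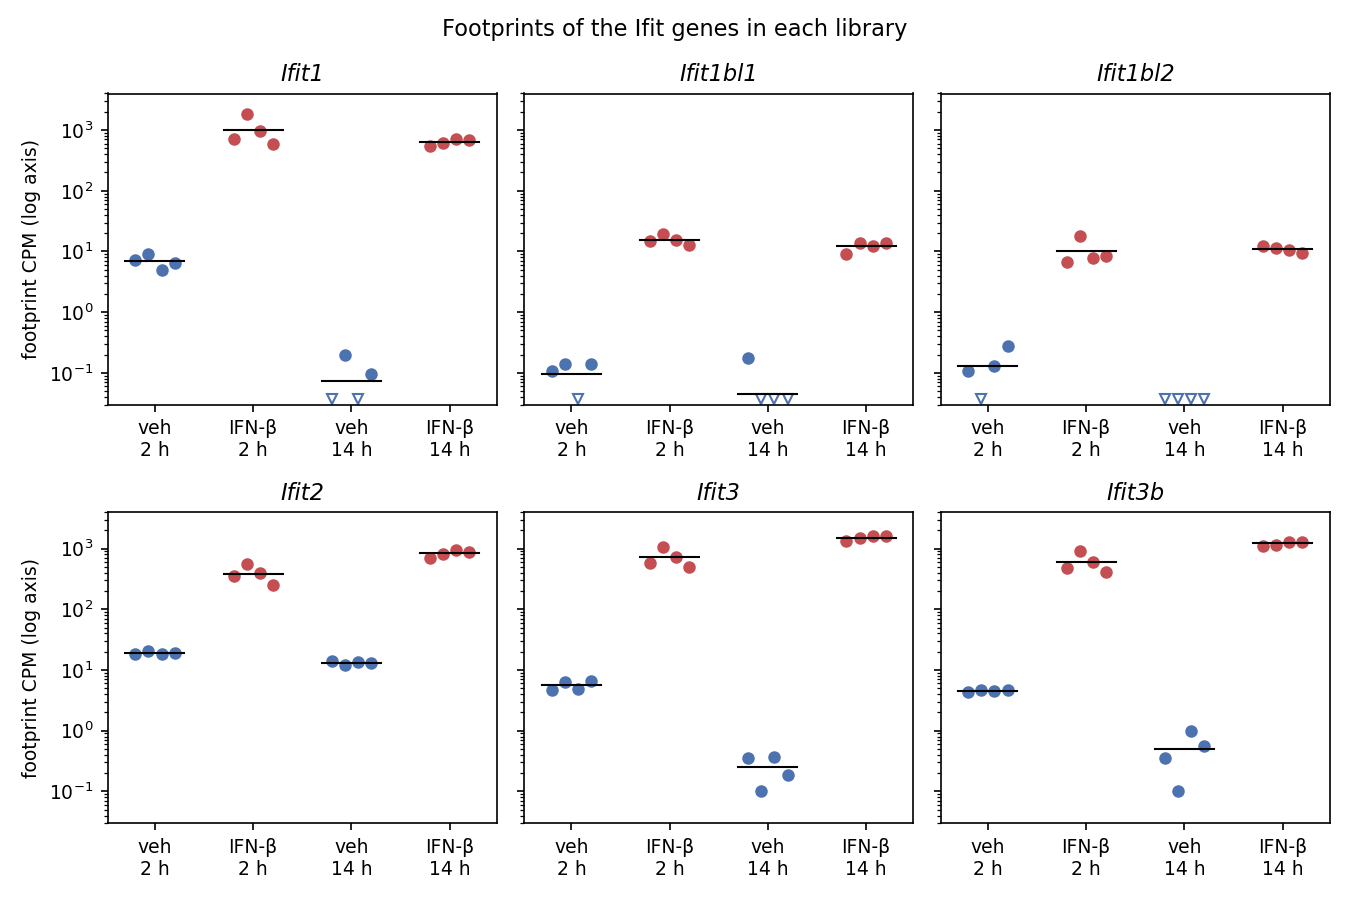
Footprint CPM of each Ifit gene on a log axis, by treatment (veh, vehicle) and time; points are libraries in the order of their culture numbers, black lines are group means, and open triangles at the lower edge are libraries with 0 counts. In each of the 6 panels the treated libraries lie above every vehicle library of the same time. How many of all genes separate in this way was not counted. Of all genes tested, 5.25% were called higher at 2 h and 26.2% at 14 h. The vehicle libraries of *Ifit1*, *Ifit3* and *Ifit3b* lie lower at 14 h than at 2 h.

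Levels of different members were compared per kilobase of CDS. With IFN-β for 2 h the order was *Ifit1* (734 ± 403 CPM per kb, SD, n = 4), *Ifit3* (597 ± 207), *Ifit3b* (497 ± 176), *Ifit2* (274 ± 90.7), *Ifit1bl1* (11.02 ± 1.98) and *Ifit1bl2* (7.30 ± 3.74). The ranges of *Ifit1* and *Ifit3*, of *Ifit3* and *Ifit3b*, of *Ifit3b* and *Ifit2*, and of the 2 paralogs of *Ifit1* overlapped, although each of the 4 libraries kept this order. With IFN-β for 14 h *Ifit3* came first (1249 ± 101 CPM per kb), followed by *Ifit3b* (1003 ± 73.9), *Ifit2* (590 ± 70.3), *Ifit1* (460 ± 57.1), *Ifit1bl1* (8.63 ± 1.54) and *Ifit1bl2* (7.81 ± 0.90). There the ranges of *Ifit2* and *Ifit1* overlapped, and those of *Ifit1bl1* and *Ifit1bl2*, which changed places in 1 of 4 libraries. With vehicle *Ifit2* was highest at both times, at 13.7 ± 0.76 CPM per kb at 2 h and 9.41 ± 0.52 at 14 h.

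The make-up of the family therefore differed between the groups. *Ifit2* held 52.8% ± 2.45 (SD, n = 4) of the family's footprints with vehicle at 2 h and 93.9% ± 2.43 at 14 h. With IFN-β its share was 14.4% ± 1.46 at 2 h and 19.7% ± 0.79 at 14 h. *Ifit1* held 35.7% ± 4.08 with IFN-β for 2 h and 15.1% ± 0.53 for 14 h, with no overlap between the libraries (33.0% to 41.7% and 14.5% to 15.7%). *Ifit3* and *Ifit3b* went the other way, from 26.7% ± 1.63 and 22.2% ± 1.27 at 2 h to 35.8% ± 0.45 and 28.8% ± 0.83 at 14 h. The 2 paralogs of *Ifit1* stayed below 1% each in every treated library.

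**Figure D4:**
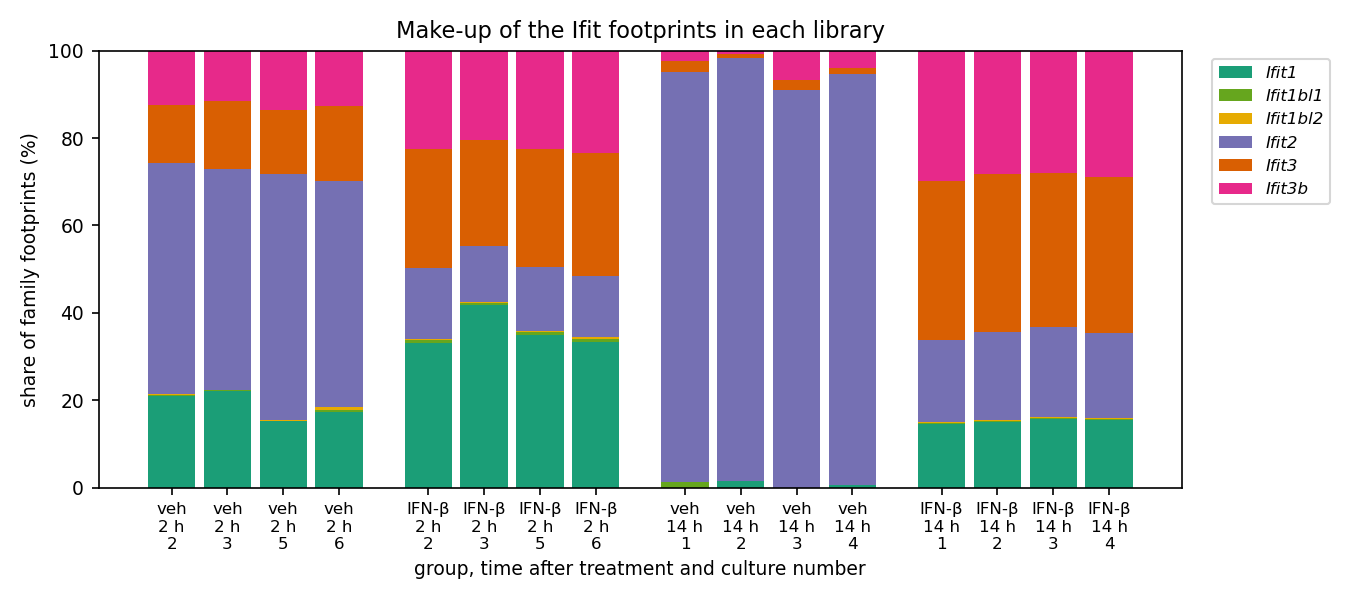
Share of each Ifit gene in the summed footprints of the family, in percent on the y axis, for each of the 16 libraries on the x axis (veh, vehicle; last line, culture number). *Ifit2* makes up 50.5% to 96.9% of the vehicle libraries, *Ifit1* is the largest share with IFN-β for 2 h, and *Ifit3* is the largest with IFN-β for 14 h.

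The split between the 2 near-identical copies was measured as the share of *Ifit3b* in *Ifit3* plus *Ifit3b*. It was 45.2%, 45.6%, 45.3% and 45.5% with IFN-β for 2 h and 45.2%, 44.0%, 44.4% and 44.6% for 14 h. The means of 45.4% and 44.5% differed by 0.89 percentage points (p = 0.0286 by a two-sided exact permutation test, which 4 against 4 libraries cannot undercut). With vehicle at 2 h the share was 45.1% of 317 counts (exact 95% interval 39.5% to 50.8%), and with vehicle at 14 h only 25 counts were left. Total RNA gave 45.2% of 263 counts with IFN-β for 2 h and 44.4% of 99 counts for 14 h. Since 78.9% of their windows are shared, how the aligner placed reads that match both copies enters this share, and its part was not tested.

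The difference between the effects at 14 h and 2 h was tested as an interaction over the 16 footprint libraries. *Ifit1*, *Ifit2*, *Ifit3* and *Ifit3b* were called higher at 14 h, beside 15.4% of the 12508 genes tested. The effect on *Ifit2* was larger by 1.65 on the log2 scale (SE 0.26, adjusted p = 0.00017), that on *Ifit3* by 5.54 (SE 0.49, adjusted p = 7.1e-07) and that on *Ifit3b* by 4.17 (SE 0.47, adjusted p = 8.6e-06). *Ifit1* was called with an adjusted p of 0.000295, and no size is given since its vehicle group at 14 h held 3 counts. *Ifit1bl1* (adjusted p = 0.497) and *Ifit1bl2* (adjusted p = 0.124) were not called. With the culture number as a block *Ifit1bl2* was called as well (adjusted p = 0.0433), and likewise without IFN-β culture 3 of 2 h (adjusted p = 0.0215).

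The vehicle and the treated groups were then compared across time separately, a pair of contrasts added after the data were seen. Between the vehicle groups *Ifit1* had 219 counts at 2 h and 3 at 14 h, a ratio of 79.6 (95% counting interval 26.9 to 389). *Ifit3* was lower at 14 h by a log2 fold change of -4.48 (SE 0.46, adjusted p = 6.4e-06) and *Ifit3b* by one of -3.15 (SE 0.44, adjusted p = 9.5e-05). *Ifit2* differed by -0.55 (SE 0.20, adjusted p = 0.0433), a call that was lost when any 1 of the vehicle libraries, or IFN-β culture 5 of 2 h, was left out and when libraries were scaled by total counts alone (adjusted p = 0.0514). The 4 members were called lower beside 16.9% of all genes tested. Between the treated groups *Ifit2* was higher at 14 h by a log2 fold change of 1.11 (SE 0.17), *Ifit3* by 1.07 (SE 0.18) and *Ifit3b* by 1.01 (SE 0.19), beside 25.4% of genes called higher. *Ifit1* was lower by -0.67 (SE 0.26, adjusted p = 0.0399), beside 25% of genes called lower. Culture 3 at 2 h had the highest treated level of every member, and without it the difference for *Ifit1* was -0.23 (adjusted p = 0.226). The call for *Ifit1* was also lost with total counts alone (adjusted p = 0.0511), without IFN-β culture 5 of 2 h (adjusted p = 0.0563) and without IFN-β culture 1 or 2 of 14 h (adjusted p = 0.0856 and 0.0699). The cultures of 2 h and 14 h were different ones, so time and experiment cannot be told apart.

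Total RNA held few reads of the family. With vehicle at 2 h *Ifit1* had counts of 0, 3, 0 and 1, and with IFN-β 20, 51, 26 and 5. At 14 h it had 0 in all 4 vehicle libraries and 9, 7, 6 and 10 in the treated ones, which is at least 7.81-fold higher, with 3 counts over the group as the floor. *Ifit2*, the best covered, had 5, 6, 4 and 11 counts with vehicle and 93, 199, 108 and 48 with IFN-β at 2 h. Its log2 fold change was 3.90 (SE 0.40, adjusted p = 0.000299), and at 14 h its 138 counts against 2 gave a ratio of 50.5 (95% counting interval 13.7 to 421). *Ifit3* had 28, 83, 28 and 5 counts against 2, 1, 1 and 6 at 2 h, where culture 6 overlapped between the groups. Its counts at 14 h were 11, 16, 18 and 10 against 0, 0, 1 and 1, a ratio of 20.1 (5.31 to 170).

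*Ifit1bl2* was the exception in total RNA. It had 82, 40, 55 and 64 counts with vehicle and 88, 50, 101 and 75 with IFN-β at 2 h, and 17, 7, 7 and 19 against 25, 19, 20 and 11 at 14 h. The groups overlapped at both times, with log2 fold changes of 0.17 (SE 0.36, adjusted p = 0.999) and 0.11 (SE 0.32, adjusted p = 0.897). Its total RNA was thus detected in every vehicle library, in which the footprints of the gene summed to 4 counts at 2 h and 0 at 14 h. A pseudogene, *AC016791.2*, is annotated on the opposite strand within *Ifit1bl2*, and whether the counting used strand is not given in the sources used here.

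At 2 h 2 members had enough total RNA to be tested, *Ifit2* and *Ifit1bl2*, and 1 was called higher, beside 0.722% of 11639 genes. At 14 h 3 were tested and *Ifit2* and *Ifit3* were called higher, beside 3.47% of 7520 genes. Without the vehicle libraries that stood apart these calls held, with adjusted p = 0.00424 for *Ifit2* at 2 h and, at 14 h, 6.3e-06 for *Ifit2* and 0.000319 for *Ifit3*, and *Ifit1bl2* had log2 fold changes of 0.30 and 0.21. *Ifit1*, *Ifit1bl1* and *Ifit3b* did not reach 10 counts in 4 libraries at 14 h. *Ifit2* at both times and *Ifit3* at 14 h reached this only through their treated libraries, where they were high. The tables were shallow for other genes too. Among 4540 protein-coding genes with at least 50 footprint CPM at 14 h, 53.5% had a mean below 10 total RNA counts, and 21.7% of 4492 did so at 2 h. The part of this in the values of the members was not tested.

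**Figure D5:**
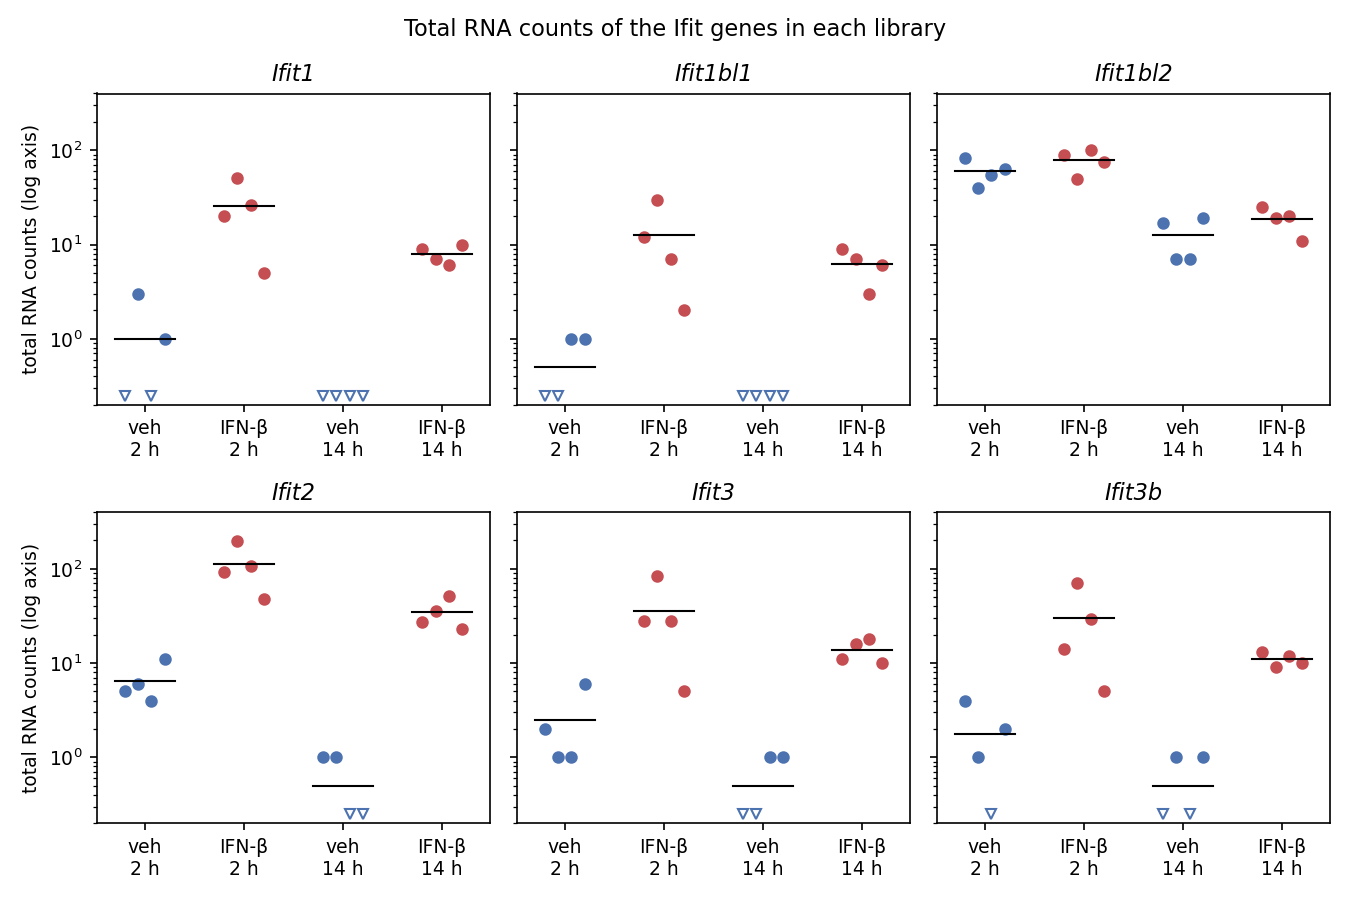
Total RNA counts of each Ifit gene on a log axis, not scaled for library size, by treatment (veh, vehicle) and time; points are libraries, black lines are group means, and open triangles at the lower edge are libraries with 0 counts. *Ifit1bl2* has 7 to 101 counts in every library with overlapping groups, whereas *Ifit2* has 0 to 11 counts with vehicle and 23 to 199 with IFN-β.

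Translation efficiency (TE), the change of footprints relative to that of total RNA, was tested as the interaction of library type and treatment at an adjusted p under 0.1. At 2 h *Ifit1bl2* was called higher, by 5.92 on the log2 scale (SE 0.73, adjusted p = 0.000117), beside 0.581% of 14115 genes. Its vehicle group held 4 footprint counts. Whether all of its total RNA counts, 314 with IFN-β against 241, came from this gene was not tested. *Ifit2* had a TE change of 0.45 (SE 0.51, adjusted p = 1.00) at 2 h, *Ifit3* one of 3.44 (SE 1.01, adjusted p = 0.223) and *Ifit1* one of 2.84 (SE 1.41, adjusted p = 0.748). At 14 h *Ifit1bl2*, *Ifit3* and *Ifit3b* were called higher, beside 4.54% of 13447 genes. The vehicle groups of *Ifit3* and *Ifit3b* held 2 total RNA counts each, and that of *Ifit1bl2* held 0 footprint counts, so no size is given. The TE calls varied with the tool, from 1 to 5 members at 2 h and from 3 to 6 at 14 h. They held without the vehicle cultures whose total RNA stood apart, and at 14 h that of *Ifit3b* was lost without vehicle culture 2 (adjusted p = 0.139) or 4 (adjusted p = 0.125).

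The genes that drive and accompany the family were followed in footprints as fixed lists. Of 10 genes of type I interferon signalling 7 were called higher at 2 h (median log2 fold change 2.73) and 8 at 14 h (2.48), beside 5.25% and 26.2% of all genes. *Stat2* and *Irf9*, subunits of ISGF3, rose by 4.03 (SE 0.17) and 4.49 (SE 0.22) on the log2 scale at 2 h and by 4.63 (SE 0.08) and 5.75 (SE 0.12) at 14 h. At 14 h *Usp18*, an inhibitor of the receptor's signal, had the highest value of the list, 11.31 (SE 0.21), and *Jak1*, a kinase of the receptor, the lowest of those called, 0.37 (SE 0.05). Of 8 RNA sensors and adaptors 5 of 7 tested were called higher at 2 h and 7 of 8 at 14 h, beside the same shares of all genes. Among them *Zbp1*, a sensor of Z-form nucleic acids, went from 0 counts in every vehicle library to 198 to 826 counts with IFN-β for 14 h, and *Tmem173*, the adaptor STING, rose by 0.91 (SE 0.14).

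The enzymes that write the mark read by IFIT1 are the cap 2′-O-methyltransferases *Cmtr1* and *Cmtr2*. At 2 h *Cmtr1* had 39.7 to 43.6 CPM in vehicle libraries and 55.1 to 66.8 in treated ones, a log2 fold change of 0.54 (SE 0.08, adjusted p = 0.00338). The values were 33.0 to 39.2 against 113 to 139 CPM at 14 h, a log2 fold change of 1.85 (SE 0.08, adjusted p = 3.9e-10). *Cmtr2* fell by 0.38 (SE 0.11, adjusted p = 0.00924) at 14 h. Of the 4 cap enzymes and partners tested, *Cmtr1* was the only one called higher at 14 h, and the only one called at 2 h. All 14 eIF3 subunits had log2 fold changes above 0 at 2 h, beside 5617 of the 12104 genes tested. The values of the subunits ran from 0.06 to 0.39 with a median of 0.14. None of them was called there by edgeR or DESeq2 (unadjusted p under 0.05 for 1, *Eif3j2*), but with the culture number as a block 9 were called higher, beside 15.9% of all genes. At 14 h 11 of the 14 were called lower, and 12 with the block, beside 26.3% and 31% of all genes, with *Eif3j2* at -0.74 (SE 0.10) and *Eif3l* at -0.18 (SE 0.05) as the extremes of those called. The eIF3 median at 14 h was -0.25 on the log2 scale, against 0.003 over all genes.

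Of the 14 genes annotated within 200 kb of the cluster, only *Lipa* and *Pank1* had enough footprints to be tested. Both changed far less in footprints than the members did, and the other neighbours cannot be judged here. *Lipa*, a lysosomal lipase, had a log2 fold change of 0.49 (SE 0.16, adjusted p = 0.132) at 2 h and 0.81 (SE 0.07, adjusted p = 1.2e-06) at 14 h. *Pank1*, a pantothenate kinase, fell by 0.35 (SE 0.11, adjusted p = 0.0153) at 14 h. In total RNA its log2 fold change was 0.03 (SE 0.38, adjusted p = 0.999) at 2 h and -1.59 (SE 0.38, adjusted p = 0.018) at 14 h.

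The genes most like the family were sought among 10258 others with at least 50 counts on average, by Pearson's r with the mean log2 CPM of the 6 members over the 16 footprint libraries. The 5 highest were *Oasl1* (r = 0.998), *Rtp4* (0.997), *Gm43302* (0.997), *Iigp1* (0.997) and *Igtp* (0.997), none of them on chromosome 19. *Oasl1*, a relative of the 2′-5′-oligoadenylate synthetases, had 95.01 to 211 CPM with IFN-β for 2 h, 226 to 267 for 14 h, 0.927 to 1.81 with vehicle at 2 h and 0.095 to 0.359 at 14 h. With vehicle it was lower at 14 h than at 2 h, as *Ifit1*, *Ifit3* and *Ifit3b* were. This is part of the pattern by which it was chosen, so it is not a further likeness. In all, 129 of the 10258 genes had an r above 0.9. These correlations are a description over libraries that share treatment and scaling. The members themselves had r values from 0.981 to 0.998. Each member is part of the mean it was compared with, so these values cannot be set against those of other genes.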

How the data were processed

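Ribosome footprints and total RNA were sequenced from the same cultures. The authors trimmed reads with Trim Galore 0.4.4, aligned them with Bowtie 0.12.7 at its standard options to the mm10 transcriptome, counted them with SummarizeOverlaps in the mode Union, removed duplicates and deposited raw read counts per gene, footprints counted in coding sequence and total RNA over the whole gene body. Standard options of this aligner report 1 place for a read that matches several, so copies can take each other's reads. Whether counting used strand is not given in the sources used here. Removal of duplicates can lower the counts of the highest genes.

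A gene entered a comparison when 4 or more of its libraries held 10 counts or more, and was tested with the quasi-likelihood test of edgeR 4.0.16 (limma 3.58.1, R 4.3.3) after TMM scaling, without replicate block, and p-values were adjusted by Benjamini-Hochberg over all genes tested. Treated and vehicle libraries were compared within a time and library type, the difference between times over the 16 footprint libraries, and translation efficiency as the interaction of library type and treatment. Calls were made at 0.05, and at 0.1 for translation efficiency. Each SE is the size of the log2 fold change divided by the square root of the F statistic of its test. Where vehicle counts are few, it can lie below the counting error. Fold changes against 1 to 3 vehicle counts are ratios of summed CPM with exact 95% counting intervals, and against 0 counts they are bounds set by 3 counts over the group. Intervals cover counting error only. DESeq2 1.42.0, limma-voom, other scalings and filters, summed copies, a replicate block and leaving out each library were alternatives. Deviations of same-numbered footprint libraries correlated at 0.26 to 0.86, so the numbers pair them. Those of total RNA correlated at -0.66 to 0.53, so no pairing was seen there. These shallow libraries came from the same cultures, so this does not show that pairing is absent. The closest replicates differed beyond sampling noise (chi-square per degree of freedom at least 2.51).

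Named genes are the 6 members, *Stat2*, *Irf9* and *Cmtr1*, the highest and lowest called gene of each list at 14 h, tested neighbours within 200 kb, and the 5 genes most correlated with the members (pseudocount 0.5). A further gene of this rule is not reported here. Members and lists were chosen with earlier results of these data known. Sequences came from RefSeq promoters and the annotated GRCm38 genome, aligned with Biopython 1.88. Tables were handled with Python 3.11.15.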

Additional observations from a re-analysis of the deposited data

Results flagged for a closer look

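In the 4 libraries of IFN-β for 2 h, culture 3 stood apart for *Ifit1bl2*, at 18.0 footprint CPM against 6.69 to 8.46 in the other cultures, and the gap took up 0.844 of the range. It was the 1 of 32 groups of member levels and *Ifit3b* shares that did so, and chance gives about 1 in 20.

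The effects of IFN-β on footprints at 14 h and 2 h differed by a test of the interaction for 4 members, with adjusted p-values from edgeR of 0.000295 for *Ifit1*, 0.00017 for *Ifit2*, 7.1e-07 for *Ifit3* and 8.6e-06 for *Ifit3b*. Time and experiment cannot be told apart in these values.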

How the results depend on the processing

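All 6 members were called in footprints at 2 h and at 14 h under every alternative that tested them, and a mean of at least 50 counts left 5 and 4 members tested, all called. With the culture number as a replicate block, 5 in place of 4 members were called for the difference between times, and no other count of members called moved by over 1.5 times, while called eIF3 subunits at 2 h went from 0 to 9. Over all genes the block raised calls from 878 to 3538 at 2 h and from 3867 to 6944 for the difference between times. The count of members called in total RNA at 2 h was 1, but 5 with no filter and 2 with the copies summed. At 14 h it was 2, but 5 with no filter, and no member was tested at a mean of at least 50 counts. For TE at 2 h it was 1, but 3 with DESeq2, 5 with limma-voom, 0 at a mean of at least 50 counts (1 tested) and 1 to 3 with 1 culture left out, 3 being without IFN-β culture 3. For TE at 14 h it was 3, but 6 with limma-voom, 2 to 3 with 1 culture left out, and none was tested at a mean of at least 50 counts. The direction of *Ifit1bl2* turned only where it was not called: in total RNA at 2 h to -0.059 without vehicle culture 3 (up to 0.372 without another), and at 14 h to -0.05 without IFN-β culture 1 and -0.097 without vehicle culture 2 (up to 0.229), and between the treated groups to -0.051 and -0.0018 without culture 2 or 5 of IFN-β for 2 h (up to 0.508 without culture 3). The share of *Ifit3b* differed by -0.0369 percentage points in total RNA (exact permutation p = 1), and by -1.11 to -0.69 with 1 library left out (exact permutation p = 0.0571, the smallest that 3 against 4 can give). Over all genes, total RNA calls went from 93 at 2 h to 169 with DESeq2, 174 with no filter and 44 at a mean of at least 50 counts, and from 474 at 14 h to 273 with total counts and 247 at that mean. TE calls went from 115 at 2 h to 259 with DESeq2, 242 with limma-voom, 51 with total counts and 27 at that mean, and from 1137 at 14 h to 382 at that mean. With 1 library left out, total RNA calls were 57 to 103 at 2 h (57 without vehicle culture 5, 59 without IFN-β culture 2) and 279 to 442 at 14 h (279 without IFN-β culture 1), and TE calls at 2 h were 73 to 156 (73 without vehicle culture 5, 75 without IFN-β culture 5). Dividing the same counts by the windows of a CDS that no other member holds would put *Ifit3* and *Ifit3b* above *Ifit1* at 2 h, but reads of shared windows are among those counts, so no order is read from it. The causes were not tested. Of 503 alternative values of single members, 475 kept their direction and side of the threshold. The contrasts between times within a treatment were chosen after seeing the data. The depth of total RNA limits its folds and TE.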
